A study of Mus musculus with 6 samples.

Results

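Fkbp5 and 8 further genes tied to glucocorticoid signalling were followed in mouse liver: Fkbp4, Tsc22d3, Zbtb16, Sgk1, Klf9, Errfi1, Dusp1 and Hsd11b1. The members were chosen because Fkbp5 was low in knockout mice without vitamin C, and the other 8 were named for their place in the same pathway. A gene was represented by the probe set annotated to it alone. Each of the 9 had exactly such a probe set, so 9 of 19550 measured genes are described, and all 9 lay among the 14662 genes tested.

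The study used 6 arrays of whole-liver RNA, 2 in each of 3 groups of male mice, all on a C57BL/6NCrSlc background and all on a diet without ascorbic acid (AA, vitamin C). The first group were SMP30/GNL knockouts without AA (AA-deficient knockouts), the next were SMP30/GNL knockouts with AA and EDTA in the drinking water (AA-supplemented knockouts), and the last were wild-type mice with neither diet nor water holding the vitamin. SMP30/GNL, encoded by Rgn, is the gluconolactonase that mice use to make AA, so the wild type can still make its own. The sources used here give no age, do not say whether the first and last groups drank EDTA, and do not state whether each array stands for its own animal, so p-values measure only the spread between these samples. Values are in the deposited log units, read as log10 because their span of -0.58 to 2.51 would be only 8.48-fold on a log2 scale; a fold printed below holds on that reading and would be smaller on another base.

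Corticosterone, the main glucocorticoid of mice, enters the hepatocyte and binds the glucocorticoid receptor, which waits in the cytosol in a complex with heat shock protein chaperones. A pair of immunophilins compete for a place in that complex: the product of Fkbp5 lowers the affinity of the receptor for hormone, and the product of Fkbp4 favours transport of the receptor to the nucleus. There the receptor binds a palindrome of short hexamers and induces genes that include Fkbp5 itself, which closes a negative feedback loop, and in the liver also genes of gluconeogenesis and amino acid breakdown.

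The windows before the transcription starts of the members were searched for the core hexamer TGTTCT on both strands, whose reverse is AGAACA, and for the palindrome of AGAACA and TGTTCT with 3 bases between them, which also counts as hexamers. RefSeq promoters (build GRCm38.p6, 250 bases before the start and 50 after it) were held for 8 members, 16 windows in all; Zbtb16 was not matched. A hexamer lay in 4 of the 16 windows, in 19.0% of all 32851 windows of the table and in 13.6% of the 14615 windows of tested genes. The 16 windows are not independent, since 6 belong to Sgk1. The palindrome lay in 1 member window, of Sgk1, and in 3 of all 32851 windows. The 250 bases before the start are shown for Fkbp5, the member that stood apart in the arrays and whose window held no hexamer, for a window of Tsc22d3 with 1 hexamer, and for the Sgk1 window with the palindrome; hexamers are in capitals and each sequence runs 5′ to 3′ on the strand of its gene.
Fkbp5, chr17:28486150-28486399, minus strand: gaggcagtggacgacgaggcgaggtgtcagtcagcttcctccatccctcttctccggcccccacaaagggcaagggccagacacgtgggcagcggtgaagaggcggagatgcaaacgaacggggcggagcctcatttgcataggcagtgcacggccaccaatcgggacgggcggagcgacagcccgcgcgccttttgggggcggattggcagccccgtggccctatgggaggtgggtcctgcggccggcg
Tsc22d3, chrX:140600523-140600772, minus strand: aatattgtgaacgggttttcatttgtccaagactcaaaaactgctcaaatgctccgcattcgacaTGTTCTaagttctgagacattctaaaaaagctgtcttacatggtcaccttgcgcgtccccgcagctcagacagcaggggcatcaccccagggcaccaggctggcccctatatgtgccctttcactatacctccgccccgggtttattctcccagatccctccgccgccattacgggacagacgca
Sgk1, chr10:21993640-21993889, plus strand: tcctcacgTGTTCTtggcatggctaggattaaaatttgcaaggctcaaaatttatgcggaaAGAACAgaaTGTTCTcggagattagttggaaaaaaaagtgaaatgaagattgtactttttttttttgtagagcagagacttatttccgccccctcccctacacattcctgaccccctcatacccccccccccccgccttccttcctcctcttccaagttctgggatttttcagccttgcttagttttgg
In the Sgk1 window the hexamers lie 242, 189 and 180 bases before the start, and the pair nearest to the start form the palindrome. In the Tsc22d3 window the hexamer lies 185 bases before the start. These matches describe letters in the windows and were not measured for binding. Sequence outside the windows was not searched, so a window without a hexamer does not show that its gene lacks a site.

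Rgn checked the labels: it was at 0.23 and 0.30 in AA-deficient knockouts and at 0.34 and 0.14 in AA-supplemented knockouts, against a wild-type mean of 2.03 ± 0.052 (SD, n = 2). Arrays of one group correlated at 0.965 or above over all probe sets and arrays of different groups at 0.945 to 0.974, so array similarity alone did not separate the groups. Hepatocyte markers stood at or above the 98.5 percentile of all genes. Of the other marker lists, the sum of the log values of 6 neutrophil markers was lower without overlap in AA-deficient knockouts (0.59 to 0.60) than in AA-supplemented knockouts (1.08 to 1.45) or wild type (1.06 to 1.34). The sum of 6 endothelial markers was higher without overlap there (6.20 to 6.46, against 6.05 to 6.06 and 5.85 to 6.01). The list was split against wild type, with 4 markers higher and 2 lower, of which 3 and 2 did not overlap. Only 1 of these, Stab2, a scavenger receptor of sinusoids, passed as higher than in wild type (0.24, SE 0.045, adjusted p = 0.0320 in limma). The neutrophil markers lay between the 4.65 and 39.5 percentiles of all genes, 3 of the 6 reached the level for testing and 0 of them passed in any comparison with limma (all adjusted p at or above 0.288). Arrays have no true zero, so no marker can be called absent, and whether fewer cells of a type or less RNA per cell lies behind a lower value cannot be told apart in whole liver.

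Fkbp5 was low in the AA-deficient knockouts and high in both other groups. It stood at 0.46 and 0.55 in AA-deficient knockouts, at 1.06 and 0.96 in AA-supplemented knockouts and at 1.16 and 1.22 in wild type. The groups did not overlap at any step of this order: every AA-deficient array lay below every AA-supplemented array, and these lay below both wild-type arrays. The means were 0.51 ± 0.068 (SD, n = 2), 1.01 ± 0.068 and 1.19 ± 0.042. The mean of AA-deficient knockouts was thus 0.50 below that of AA-supplemented knockouts (SE 0.054, 3.16-fold) and 0.68 below wild type (SE 0.054, 4.82-fold). These 2 differences are the reason the gene was chosen, so no p-value is given for them and nothing is read from their passing a threshold. Of 14662 genes, Fkbp5 ranked 16 from the lowest difference between the knockout groups and 7 from the lowest against wild type. Its arrays within a group differed by 0.060 to 0.097, well under the difference between the knockout groups. The marker sums of neutrophils and endothelial cells given above moved with the same group, and their part in the level of Fkbp5 was not tested.

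**Figure D1:**
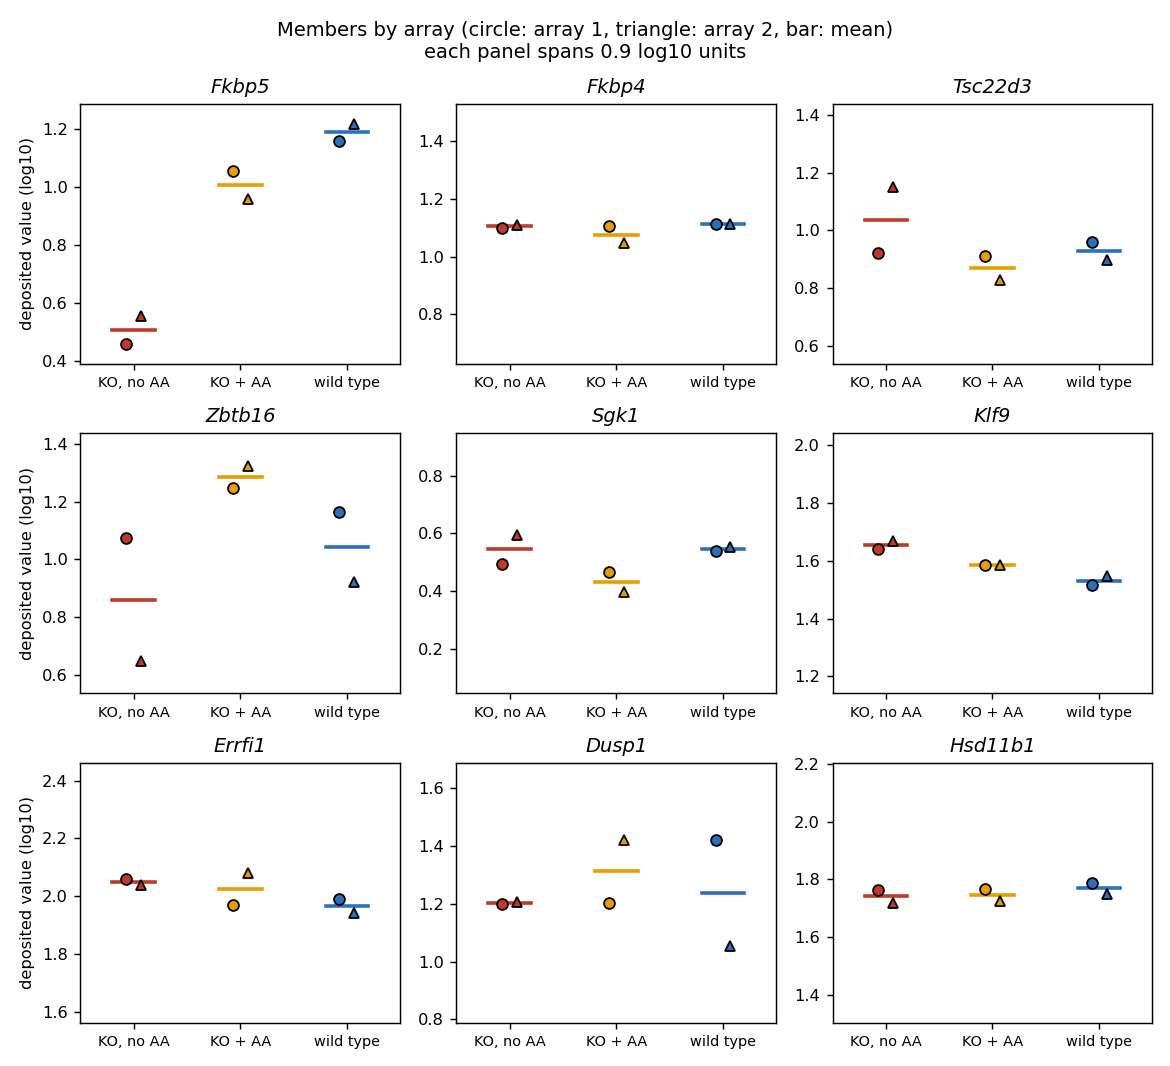
Deposited log10 value of each member on each array, by group, with circles for array 1, triangles for array 2 and bars for the group mean; the axes differ in position but all span 0.9 log10 units. Fkbp5 separates AA-deficient knockouts (0.46 and 0.55) from the other 4 arrays (0.96 to 1.22), while arrays of one group lie far apart for Zbtb16 and Dusp1.

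Fkbp4, the partner immunophilin in the receptor complex, stayed level. It was at 1.10 and 1.11 in AA-deficient knockouts, at 1.11 and 1.05 in AA-supplemented knockouts and at 1.11 on both wild-type arrays. One AA-supplemented array was lower than the other 5 arrays, which lay between 1.10 and 1.11. The differences were 0.028 between AA-deficient and AA-supplemented knockouts (SE 0.041) and -0.0074 between AA-deficient knockouts and wild type (SE 0.041). The pair had differences of unlike size on the same arrays, -0.50 for Fkbp5 and 0.028 for Fkbp4 between the knockout groups.

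Tsc22d3 encodes GILZ, a leucine zipper protein that mediates anti-inflammatory effects of glucocorticoids. Its values were 0.92 and 1.15 in AA-deficient knockouts, 0.91 and 0.83 in AA-supplemented knockouts and 0.96 and 0.90 in wild type. A single AA-deficient array was high, and the other 5 lay between 0.83 and 0.96. The mean of AA-deficient knockouts was 0.17 above AA-supplemented knockouts (SE 0.074) and 0.11 above wild type (SE 0.074), opposite in sign to Fkbp5. Without AA-deficient array 2 these were 0.051 and -0.0072, and without AA-deficient array 1 they were 0.28 and 0.22.

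Zbtb16, which encodes the zinc finger repressor PLZF, had the widest gap between arrays of one group among the members. It was at 1.07 and 0.65 in AA-deficient knockouts, at 1.25 and 1.32 in AA-supplemented knockouts and at 1.16 and 0.92 in wild type. Both AA-deficient arrays lay below both AA-supplemented arrays, and the wild-type arrays overlapped the AA-deficient range. The difference between the knockout groups was -0.42 (SE 0.13), as large as the gap of 0.42 between the AA-deficient arrays themselves, a gap at the 99.9 percentile of all genes tested. Against wild type the difference was -0.18 (SE 0.13). Without AA-deficient array 2 these differences were -0.21 and 0.030, and without AA-deficient array 1 they were -0.64 and -0.39. The difference from wild type was also -0.061 without wild-type array 1 and -0.30 without wild-type array 2.

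Sgk1, the serum and glucocorticoid regulated kinase, which acts on ion channels and transporters, was low in AA-supplemented knockouts. Its values were 0.50 and 0.60 in AA-deficient knockouts, 0.47 and 0.40 in AA-supplemented knockouts and 0.54 and 0.55 in wild type. Neither AA-supplemented array overlapped either other group. The AA-deficient knockouts stood 0.11 above AA-supplemented knockouts (SE 0.049) and level with wild type (difference -6.6e-04, SE 0.049). The former was 0.064 without AA-deficient array 2. A single one of the windows of Sgk1 holds the palindrome, and the probe set was not matched to that start. The order of Sgk1 over the groups differed from that of Fkbp5, whose lowest group was the AA-deficient one.

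Klf9, a Kruppel-like transcription factor, had its highest values in AA-deficient knockouts. It was at 1.64 and 1.67 there, at 1.58 and 1.59 in AA-supplemented knockouts and at 1.52 and 1.55 in wild type. The groups did not overlap, in the reverse order of Fkbp5. The steps were small: 0.069 from AA-supplemented to AA-deficient knockouts (SE 0.040) and 0.12 from wild type to AA-deficient knockouts (SE 0.040, 1.33-fold).

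Errfi1, an inhibitor of the epidermal growth factor receptor, was at 2.06 and 2.04 in AA-deficient knockouts, at 1.97 and 2.08 in AA-supplemented knockouts and at 1.99 and 1.94 in wild type. The AA-supplemented arrays spanned the AA-deficient ones, and both AA-deficient arrays lay above wild type by a mean of 0.082 (SE 0.049). Dusp1 encodes a phosphatase that switches off MAP kinases. It was at 1.20 and 1.21 in AA-deficient knockouts, at 1.20 and 1.42 in AA-supplemented knockouts and at 1.42 and 1.05 in wild type. The gap of 0.37 between its wild-type arrays, at the 99.8 percentile of all genes tested, exceeded every difference between its group means, of which the widest in size was -0.11 (AA-deficient minus AA-supplemented, SE 0.11). That difference was -0.22 when the first AA-supplemented array was dropped and -0.0015 when the other was dropped. Without wild-type array 1 the difference of AA-deficient knockouts from wild type was 0.15 and without wild-type array 2 it was -0.22.

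Hsd11b1 encodes the enzyme that regenerates active corticosterone from its inert keto form inside the hepatocyte. Its values were 1.76 and 1.72 in AA-deficient knockouts, 1.77 and 1.72 in AA-supplemented knockouts and 1.79 and 1.75 in wild type. All 3 groups overlapped. The differences were -0.0048 between the knockout groups and -0.029 between AA-deficient knockouts and wild type (SE 0.043 for both).

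**Figure D2:**
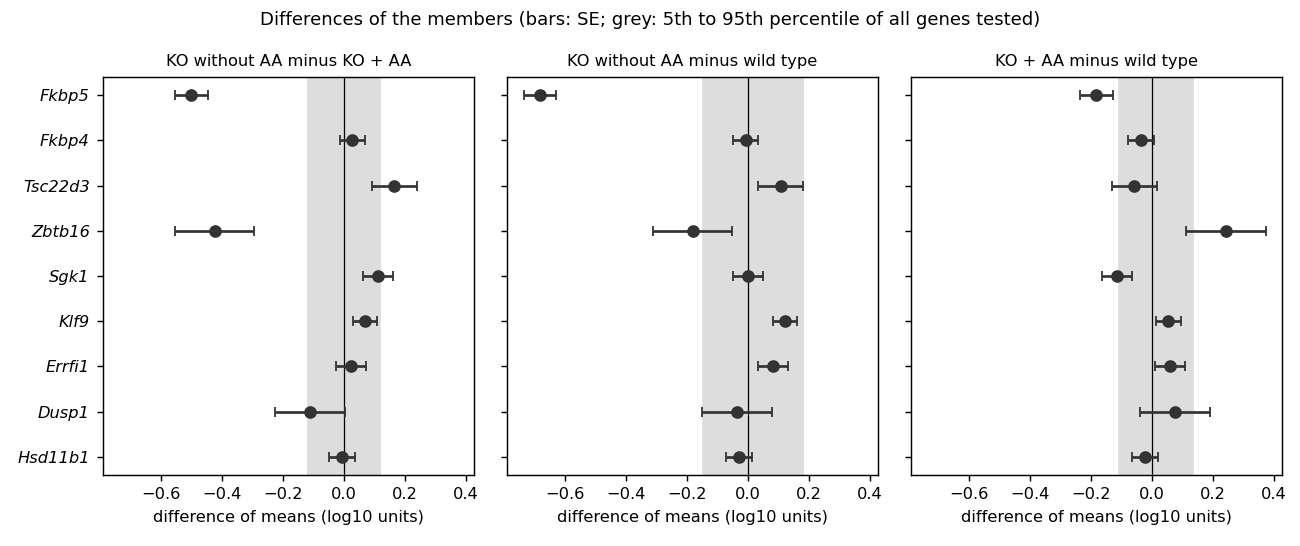
Difference of group means for each member in the 3 comparisons, in log10 units, with bars for the standard error and a grey band from the 5th to the 95th percentile of all 14662 genes tested. Outside the band lie Fkbp5 (-0.50), Zbtb16 (-0.42) and, on the other side, Tsc22d3 (0.17) between the knockout groups, Fkbp5 (-0.68) and Zbtb16 (-0.18) for AA-deficient knockouts against wild type, and Fkbp5 (-0.18), Sgk1 (-0.11) and Zbtb16 (0.24) for AA-supplemented knockouts against wild type, while Fkbp4 and Hsd11b1 lie near 0 in each comparison.

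Between the knockout groups, which share the genotype and differ in AA in the water (whether also in EDTA is not stated), 1 of 9 members was past an adjusted p of 0.05 in limma, Fkbp5, against 0.205% of all genes tested (0.0409% higher and 0.164% lower). Against wild type, which joins loss of the gene and of AA, 1 of 9 was past it, again Fkbp5, against 4.63% (3.08% higher and 1.55% lower). As Fkbp5 was chosen on these comparisons, nothing is read from either count. Between the knockout groups the count was 0 without AA-deficient array 1, AA-supplemented array 2 or either wild-type array, and against wild type it was 0 without either wild-type array. The difference of Fkbp5 itself ran from -0.55 to -0.45 and from -0.73 to -0.63 when single arrays were left out. Without AA, 5 of the 9 members were higher and 4 lower than with it, and their median difference was 0.024 against 3.1e-05 over all genes. Groups did not overlap for 5 of 9, against 37.3% of all genes; 3 were higher (19.8% of all genes) and 2 lower (17.5%). Against wild type 3 were higher and 6 lower, with a median of -0.0074 against -0.0034 over all genes, and 4 did not overlap, against 54.5% of all genes; 2 were higher (27.6% of all genes) and 2 lower (26.9%). The largest difference from wild type among the other 8 was 0.18 in size, that of Zbtb16.

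The comparison of AA-supplemented knockouts with wild type sets knockouts given AA in the water against mice that make their own, so genotype and the source of AA cannot be told apart. The choice of members did not use it, although it shares arrays with the comparisons above. Fkbp5 was 0.18 lower in the knockouts (SE 0.054, 1.52-fold, 95% interval -0.31 to -0.059) and did not pass over all genes (adjusted p = 0.324 in limma), although both knockout arrays lay below both wild-type arrays. Its levels in AA-supplemented knockouts and wild type, neighbours in the order of groups, are therefore not told apart by this test. Sgk1 was 0.11 lower (SE 0.049, 95% interval -0.23 to -4.9e-04, adjusted p = 0.469), lower on both arrays. Zbtb16 was 0.24 higher on both arrays (SE 0.13, 95% interval -0.058 to 0.54, adjusted p = 0.564), and 0.12 higher without wild-type array 2. Klf9 was 0.054 higher on both arrays (adjusted p = 0.694) and Fkbp4 0.036 lower on both (adjusted p = 0.818). The groups overlapped for Tsc22d3 (-0.058, adjusted p = 0.837), Errfi1 (0.058, adjusted p = 0.733), Dusp1 (0.076, adjusted p = 0.869) and Hsd11b1 (-0.024, adjusted p = 0.891). Without single arrays the difference ran from -0.066 to -0.0060 for Fkbp4, from -0.0995 to -0.017 for Tsc22d3, from 0.0028 to 0.11 for Errfi1 (0.023 after quantile normalisation) and from -0.11 to 0.26 for Dusp1. In limma 0 of 9 members passed, 2 had an unadjusted p under 0.05 (10.6% of all genes), and 0.00682% of all genes tested passed, which is Rgn alone. Groups did not overlap for 5 of 9 members, against 38.6% of all genes; 2 were higher (19.8% of all genes) and 3 lower (18.8%). The 95% intervals run from -0.058 to 0.54 for Zbtb16 and from -0.19 to 0.34 for Dusp1, which is the range of difference these arrays allow.

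The rest of the pathway was read from 6 lists of 98 genes that hold no member, of which 83 were tested. They were drawn up with earlier results of these data known, which named Lcn2, Hsp90aa1 and Igfbp1 among others. Between the knockout groups 0 of 83 passed in limma. Of the 83, 17 had an unadjusted p under 0.05, a larger share than the 9.92% of all genes. With a trended and robust fit 3 passed, Nr3c2 and Per1 as higher and Hsp90aa1 as lower. Lcn2 passed as lower with median centring and without AA-supplemented array 1, and Per1 as higher with a filter at the 50th percentile. In AA-supplemented knockouts against wild type 0 of 83 passed in limma (10 had an unadjusted p under 0.05, against 10.6% of all genes), and 1, Crebbp, with a trended and robust fit. In AA-deficient knockouts against wild type 12 of 83 passed (14.5%, against 4.63% of all genes), 8 higher and 4 lower, or 6 higher and 5 lower after quantile normalisation. There 24 had an unadjusted p under 0.05, a larger share than the 20.4% of all genes. As the lists were drawn up with results of these data known, nothing is read from these shares in any comparison. The listed genes were also mostly bright, with list medians at the 66.0 to 99.0 percentiles of all genes. Single genes were dim, such as Abcb1b at the 26.6 percentile. The count moved with the arrays used. It was 2 when the first AA-deficient array was dropped, 3 when the other was dropped, and 0 in limma when either wild-type array was dropped (20 and 22 at an unadjusted p under 0.05). With no filter on dim genes it was 1, and it was 14 both with a filter at the 50th percentile and with a trended and robust fit. In these last 2 settings 1057 and 1312 of all genes passed.

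Of the receptors and chaperones, 1 rose and 1 fell of 15 in AA-deficient knockouts against wild type (median -0.023), beside 3.08% and 1.55% of all genes. Nr3c1, the glucocorticoid receptor, had values of 1.12 and 1.17 in AA-deficient knockouts, 1.09 and 1.06 in AA-supplemented knockouts and 1.02 and 1.05 in wild type. Its groups did not overlap, and its difference from wild type of 0.11 did not pass (SE 0.042, adjusted p = 0.185). Nr3c2, the mineralocorticoid receptor, which also binds corticosterone, rose. It was at 0.59 and 0.73 in AA-deficient knockouts, at 0.32 and 0.39 in AA-supplemented knockouts and at 0.36 on both wild-type arrays. The rise over wild type was 0.30 (SE 0.056, adjusted p = 0.0311), and the difference from AA-supplemented knockouts of 0.31 did not pass (adjusted p = 0.104). Hsp90aa1, a cytosolic chaperone that holds the receptor ready for hormone, fell by 0.23 against wild type (SE 0.048, adjusted p = 0.0430), with a difference of -0.21 from AA-supplemented knockouts (adjusted p = 0.182).

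Of 10 other FKBP family genes, 1 fell against wild type (median -0.043), beside 1.55% of all genes. It was Fkbp11, which encodes an isomerase of the endoplasmic reticulum, at 0.18 and 0.33 in AA-deficient knockouts, 0.43 and 0.40 in AA-supplemented knockouts and 0.54 and 0.56 in wild type. It fell by 0.30 (SE 0.056, adjusted p = 0.0307), without overlap of the groups. The order of its group means was that of Fkbp5, an order shared in this list by Fkbp1a, Fkbp2, Fkbp7 and Fkbpl. The share of all genes with that order was not counted. Of 8 genes of corticosteroid supply, 1 fell, beside the same 1.55% of all genes. It was the drug exporter gene Abcb1b, which fell by 0.26 (SE 0.049, adjusted p = 0.0325). Abcb1b was dim, with a mean over all arrays of 0.196, just above the level for testing of 0.185. It was at 0.12 and 0.010 in AA-deficient knockouts, below that level, and at 0.31 and 0.33 in wild type. It thus entered the tests through the groups where it was higher, and its call is read with that limit. Serpina6, which encodes the corticosteroid binding globulin of plasma, was 0.17 above wild type in AA-deficient knockouts (SE 0.048, adjusted p = 0.0839), which did not pass.

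Of 23 other receptor targets, 2 rose and 1 fell against wild type (median 0.026), beside 3.08% and 1.55% of all genes. Per1, a clock gene that glucocorticoids induce, was at 0.68 and 0.72 in AA-deficient knockouts, 0.47 and 0.42 in AA-supplemented knockouts and 0.41 and 0.42 in wild type. It rose by 0.28 against wild type (SE 0.042, 1.92-fold, adjusted p = 0.0168), with a difference of 0.25 from AA-supplemented knockouts that did not pass (adjusted p = 0.0870). Zfp36, which encodes tristetraprolin, a protein that speeds decay of cytokine mRNA, rose by 0.23 (SE 0.048, adjusted p = 0.0420). Its AA-supplemented arrays were also above wild type without overlap, by a mean of 0.15 that did not pass (adjusted p = 0.351 in limma). Lcn2, the iron scavenging acute phase protein lipocalin, fell by 0.69 (SE 0.13, 4.89-fold lower, adjusted p = 0.0316). Mt1 and Mt2, also of this list, differed from wild type by -0.38 and -0.36, without overlap and without passing. From AA-supplemented knockouts they differed by -0.32 and -0.41, again without overlap and without passing. Their AA-deficient arrays lay 0.40 and 0.28 apart. Targets of the receptor thus stood on both sides of wild type, 12 of the 23 above it and 11 below. Of those that passed, Per1 and Zfp36 rose, and Lcn2 fell.

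Of 14 metabolic targets of the liver, 2 rose against wild type (median 0.050), beside 3.08% of all genes. Igfbp1, whose secreted product binds insulin-like growth factors, rose by 0.77 (SE 0.16, adjusted p = 0.0424) from 0.46 and 0.37 in wild type to 0.93 and 1.44, a wide gap between its AA-deficient arrays. Its AA-supplemented arrays, at 0.58 and 0.92, were also above wild type, by a mean of 0.33 that did not pass (adjusted p = 0.524 in limma). Foxo1, a transcription factor of the fasting response, rose by 0.19 (SE 0.042, adjusted p = 0.0458). Its AA-supplemented arrays, at 1.08 and 1.06, were also above the wild-type arrays, both at 0.94, without passing (adjusted p = 0.357 in limma). Tat and Pck1, of tyrosine breakdown and gluconeogenesis, are textbook targets and were chosen for mention after their values were seen. Tat differed from wild type by 0.043 (SE 0.078, adjusted p = 0.821) and Pck1 by 0.033 (SE 0.066, adjusted p = 0.841). G6pc, also of gluconeogenesis, was 0.21 above wild type (SE 0.10, adjusted p = 0.296 in limma). It was 0.29 above AA-supplemented knockouts (adjusted p = 0.378), and neither comparison overlapped or passed. Of the 14 genes, 13 stood above wild type and 1 below, and between the knockout groups 7 were higher and 7 lower. Of 13 coregulators, 3 rose against wild type (median 0.088), beside 3.08% of all genes. They were Crebbp, an acetyltransferase, by 0.27 (SE 0.050, adjusted p = 0.0303), the coactivator Ncoa1 by 0.24 (SE 0.045, adjusted p = 0.0311) and Stat5b, the transcription factor of growth hormone signalling, by 0.24 (SE 0.043, adjusted p = 0.0296). With no filter on dim genes and with the replicate block 0 of the 13 passed in this comparison. The median of the coregulators was 0.084 in AA-supplemented knockouts against wild type, where 0 passed in limma (3 had an unadjusted p under 0.05, beside 10.6% of all genes). The median of all genes was -0.0034 and -0.0017 in these 2 comparisons.

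**Figure D3:**
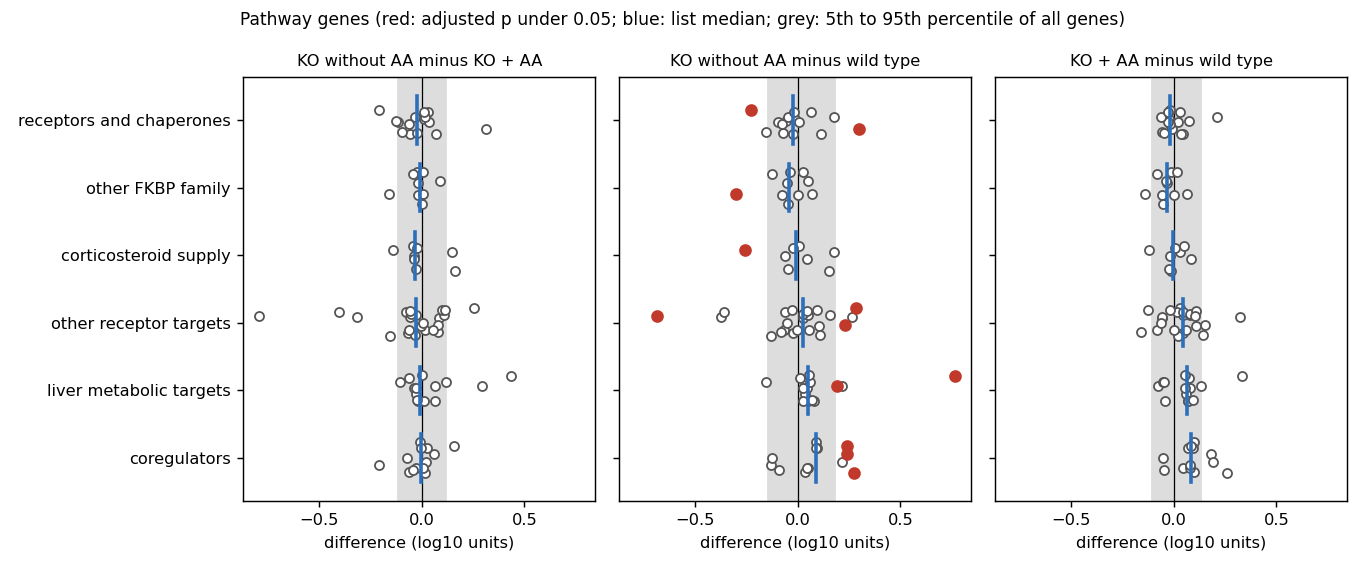
Differences of the tested genes of 6 pathway lists in the 3 comparisons, in log10 units; red points have an adjusted p under 0.05 in limma, blue bars are list medians and the grey band runs from the 5th to the 95th percentile of all genes tested. All 12 red points are differences between AA-deficient knockouts and wild type, 8 higher and 4 lower.

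Genes with a pattern like that of Fkbp5 were ranked by the root mean square difference over the 6 arrays after each gene was centred on its own mean. The 5 nearest with a usable name were Socs2, an inhibitor of growth hormone signalling, at 0.058, Avpr1a, the vasopressin receptor of hepatocytes, at 0.078, Tifa, an adaptor of TRAF proteins, at 0.082, Plscr1, a phospholipid scramblase, at 0.089, and Tgm1, a transglutaminase, at 0.094. Socs2 was low on the same arrays as Fkbp5, with 0.89 and 0.80 in AA-deficient knockouts, 1.38 and 1.29 in AA-supplemented knockouts and 1.44 and 1.58 in wild type. The other 8 members lay far from Fkbp5 by this measure, from 0.28 for Hsd11b1 to 0.35 for Tsc22d3. For Hsd11b1, the nearest, 33.9% of all genes tested were closer to Fkbp5, and for Tsc22d3 91.8% were. Among the other receptor targets, Mt1 and Mt2 lay near Fkbp5, with 0.375% and 0.443% of all genes tested closer. Per1, of the same list, lay far from it, with 98.8% closer. The measure depends on the size of a gene's changes as well as on their order. A gene nearly level on all arrays, such as Hsd11b1 or Fkbp4, lies at a distance set by the spread of Fkbp5. For such genes the distance does not show an unlike pattern. The ranking by likeness rests on 6 arrays in 3 groups and is a description.

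**Figure D4:**
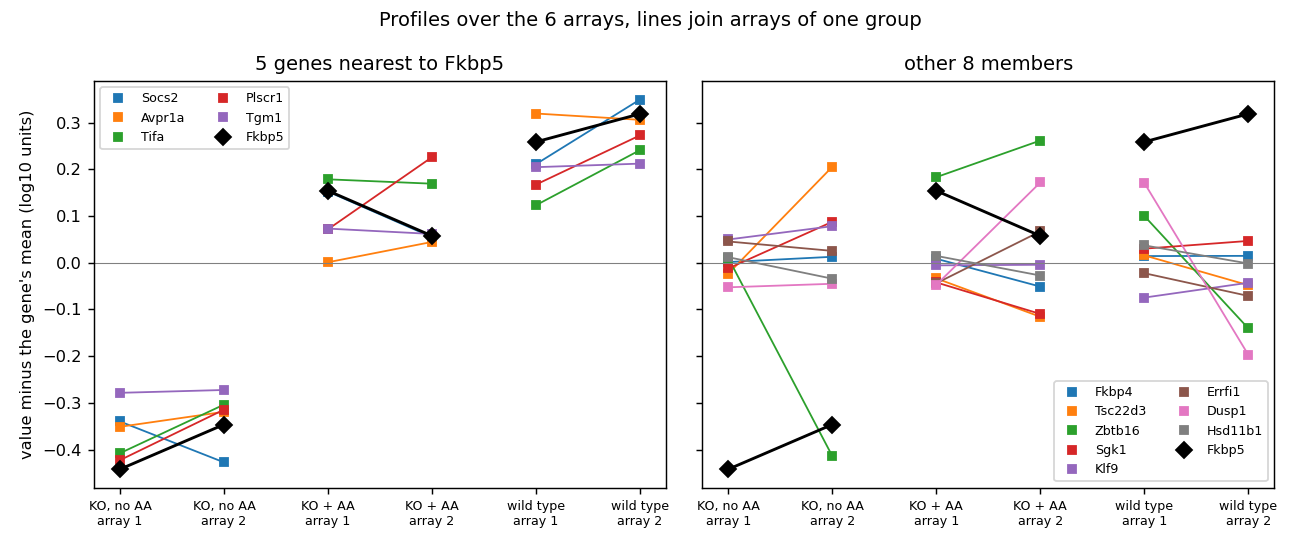
Values over the 6 arrays after subtraction of each gene's mean, in log10 units, for Fkbp5 (black) with the 5 nearest genes (left) and with the other 8 members (right); lines join the arrays of one group. The 5 genes lie below their means on both AA-deficient arrays and above them on the other 4, as Fkbp5 does, while the other members scatter about 0, with single low arrays for Zbtb16 and Dusp1.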

How the data were processed

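Liver RNA was extracted with ISOGEN and prepared with a GeneChip whole-transcript labelling kit, per the labels' protocols. The deposited table holds a log10-like value per probe set and array; the base was read as log10 from the values, and software, background correction, normalisation and annotation steps of the authors were left unstated in the labels. Of 34760 probe sets, 3995 without a value were left out, and of the remaining 30765, 21161 had 1 gene symbol, 1150 several and 8454 none in the platform annotation. The probe set of highest mean stood for a gene, and genes at or above the 25th percentile of the mean (0.185) entered the tests. One moderated linear model (limma 3.58.1, R 4.3.3) took all 6 arrays, with 3 residual degrees of freedom and 4.89 from the prior. Its two-sided p-values were Benjamini-Hochberg adjusted over the 14662 genes, with a threshold of 0.05. The fit was tested on simulated data.

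The members and lists were chosen with earlier results of these data known. Named genes were the members, Rgn, up to 6 genes past the threshold in each list, Nr3c1, Nr3c2, Hsp90aa1, Hsp90ab1, Serpina6 and Per1 whatever their p (Hsp90ab1 was not matched), and the 5 genes nearest to Fkbp5; predicted genes and clone names were left unnamed. Stab2, Tat, Pck1, G6pc, Mt1, Mt2, Fkbp1a, Fkbp2, Fkbp7 and Fkbpl were named after their values were seen. A comparison of the Fkbp4 and Fkbp5 proteins was planned and is not analysed here. Alternatives were other normalisations, filters, fits and probe sets, a replicate block and leaving out each array. The number of arrays limits the precision.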

Additional observations from a re-analysis of the deposited data

How the results depend on the processing

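Under 15 alternatives the difference of Fkbp5 ran from -0.55 to -0.45 between the knockout groups. It ran from -0.73 to -0.63 in AA-deficient knockouts against wild type, and from -0.23 to -0.13 in AA-supplemented knockouts against wild type. The groups of Fkbp5 do not overlap, so leaving out an array could not turn its sign. With its single probe set, changes of filter, fit or probe sets leave its group means as they are. Nothing is therefore read from the kept sign. Members past the threshold between the knockouts numbered 0 in place of 1 with no filter, with the replicate block and with only the 4 arrays compared, and 0 to 1 without single arrays. Against wild type AA-deficient knockouts had 2, Klf9 beside Fkbp5, with a trended and robust fit, and 0 to 1 without single arrays. All genes past the threshold between the knockouts numbered 30, and 14 after quantile normalisation, 57 after median centring, 13 after cyclic loess, 0 with no filter (1550 unadjusted), 51 with the 50th percentile filter, 177 with a trended and robust fit, 4 with the replicate block, 0 with only the 4 arrays (1230 unadjusted) and 0 to 46 without single arrays. In AA-deficient knockouts against wild type 679 became 173 with no filter, 1057 with the 50th percentile filter, 1312 trended and robust, 163 with the replicate block, 1031 with only the 4 arrays, and 1 to 1031 without single arrays. In AA-supplemented knockouts against wild type 1 became 8 after median centring, 116 trended and robust, 3 with the replicate block and 1 to 7 without single arrays. Dusp1 turned from 0.076 to -0.034 without AA-supplemented array 2 and to -0.11 without wild-type array 2 in that comparison, in a range of -0.11 to 0.26 without single arrays. The causes were not tested.

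The labels number the arrays 1 and 2 in each group without saying that a number marks a shared batch. Deviations of same-numbered arrays correlated at -0.37, 0.36 and -0.28 over the 3 comparisons in the order above, so the numbers were not taken as pairs, and with 2 arrays a group the block leaves little spread to estimate. With the replicate block 1 listed pathway gene passed in AA-deficient knockouts against wild type, in place of 12, and between the knockouts 1, Lcn2, passed as lower, in place of 0.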
